A study of Mus musculus with 6 samples.

Results

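The splicing factor genes described here are those of the SR proteins, the heterogeneous nuclear ribonucleoproteins (hnRNPs), the proteins of the small nuclear ribonucleoproteins (snRNPs), the U2 subunits SF3A and SF3B and the pre-mRNA processing factors (PRPF). Members were chosen by symbol, as those beginning with Srsf, Hnrnp, Snrp, Sf3a, Sf3b or Prpf, and needed at least 10 expected counts in at least 3 of the 6 libraries. Of 53090 gene rows, 72 carried such a symbol, 4 of them were pseudogenes by their symbol, and the other 68 stood for 66 symbols. The pseudogene Snrpert fell below the minimum, as did Snrpn with 12 counts in liver and 0 in blood, which left 64 members. They comprised 11 SR proteins, 20 hnRNPs, 11 snRNP proteins, 9 SF3A and SF3B subunits and 13 PRPF proteins. By the GENCODE M21 annotation all 64 were protein coding. Because low genes had to reach the minimum in some libraries, the members that passed do not stand for every gene with such a symbol.

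RNA had been sequenced from neutrophils of the liver (liver 1, 2 and 3) and of the blood (blood 1, 2 and 3). All mice had eaten for 1 week a diet with 3,5-diethoxycarbonyl-1,4-dihydrocollidine (DDC), which injures the bile ducts, so that no group without the diet entered the comparison. The cells were selected with magnetic beads against Ly6G, a surface protein of mouse neutrophils, after a Percoll gradient for liver and after lysis for blood. The design text gives 3 mice, and strain, genotype, age and any link between the libraries of a mouse are not in the labels.

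Splicing removes introns from pre-mRNA. The spliceosome assembles from the U1, U2, U4, U5 and U6 snRNPs, most of which carry a ring of Sm proteins (Snrpb, Snrpd1, Snrpd2, Snrpd3, Snrpe, Snrpf and Snrpg), together with proteins of a single particle such as Snrpa and Snrpc of U1 or Snrpa1 and Snrpb2 of U2. SF3A and SF3B hold the U2 particle at the branch point, and PRPF proteins build and remodel the tri-snRNP and the catalytic core. SR proteins generally favour the use of the exons they bind, whereas many hnRNPs favour exon skipping or retain and transport RNA. Mature neutrophils are short-lived cells with a low content of RNA.

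The libraries held 13778681 to 17579669 counts in liver and 13054673 to 14403803 counts in blood. A level is given as CPM, the count scaled to a common library size with TMM factors, and at these depths 3 counts equal 0.181 to 0.263 CPM. Neutrophil markers were present in every library, but 9 of 10 were lower in liver, with a summed level of 7934 to 13757 CPM in liver and 21564 to 32775 CPM in blood. Hepatocyte markers were higher for 5 of 6 tested, with sums of 16.5 to 231 CPM in liver and 0.526 to 4.89 CPM in blood. Kupffer cell and macrophage markers were higher for 5 of 10 (528 to 1014 CPM in liver and 328 to 512 CPM in blood). Monocyte markers were higher for 6 of 7 (771 to 1148 CPM in liver and 67.1 to 132 CPM in blood), and liver endothelial markers for 4 of 5 (19.9 to 49.1 CPM in liver and 14.1 to 19.0 CPM in blood). Of 2 biliary markers tested, 1 was higher and 1 lower (46.2 to 72.7 CPM in liver and 11.2 to 14.6 CPM in blood). Most of the liver sum was Spp1, the higher one, with a mean of 55.7 CPM in liver and 2.04 CPM in blood. Krt19, Sox9 and Cldn4 were at 0 in blood, but averaged only 0.37, 0.29 and 0.15 CPM in liver. Platelet markers were lower for 3 of 6 (7.83 to 16.6 CPM in liver and 35.0 to 215 CPM in blood), B cell markers for 2 of 5 (55.8 to 74.3 CPM in liver and 47.3 to 206 CPM in blood) and T and NK cell markers for 1 of 6 (3.73 to 7.78 CPM in liver and 5.52 to 9.20 CPM in blood). The 7 erythroid markers, with 143 to 2730 CPM in liver and 367 to 33698 CPM in blood, were not called. Mitochondrial mRNA made up 1.04% ± 0.381 of the liver counts, against 0.114% ± 0.0421 of the blood counts (SD, n = 3 each). Mitochondrial rRNA made up 9.98% ± 1.46 in liver and 5.27% ± 1.17 in blood. The genes Gm26917 and Gm42418 together made up 2.02% ± 0.793 in liver and 0.320% ± 0.198 in blood. The part of these other cells and of RNA quality in the results below was not tested, and fewer cells of a type and less RNA per cell cannot be told apart in such libraries.

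The summed level of the splicing factors overlapped between liver and blood cells, while single genes moved in both directions. The 64 members summed to 8127, 8742 and 7829 CPM in liver 1, 2 and 3, against 8477, 8468 and 7864 CPM in blood 1, 2 and 3. A gene was called when its adjusted p lay below 0.05 by edgeR's quasi-likelihood test with Benjamini-Hochberg adjustment over all 13458 genes tested. Among 63 members with a test, liver was higher for 12 and lower for 6, and 45 were not called. That made 19.0% higher and 9.52% lower, beside 17.4% higher and 14.2% lower among all genes tested, so the share of members called, 28.6%, lay near the background of 31.6%. The median of the log2 fold changes, liver minus blood, was 0.16 for the members and 0.04 for all genes tested. Groups did not overlap for 22 members that were higher and 10 that were lower in liver, or 34.9% and 15.9%, beside 25.8% and 22.7% of all genes tested (48.5% in both directions).

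**Figure D1:**
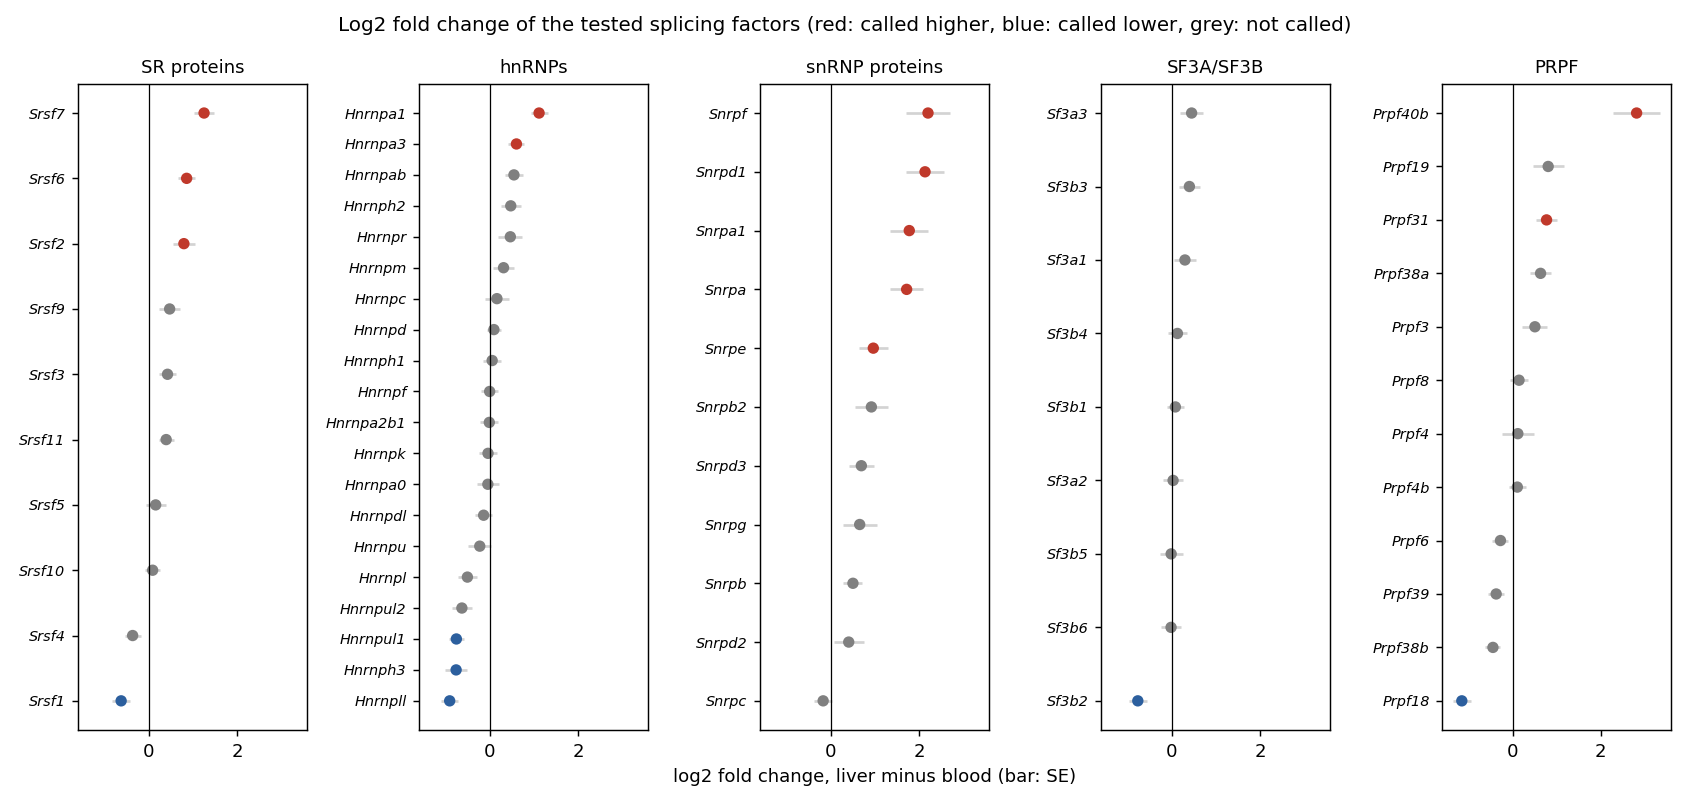
Log2 fold change, liver minus blood, of 62 of the 63 tested splicing factor genes, in 1 panel per role group, with bars for the standard error; red points were called higher, blue points lower and grey points were not called. The snRNP proteins lie to the right of 0 except Snrpc, while the hnRNPs spread over both sides.

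Promoter sequences of some called members are shown because these genes moved in opposite directions between the same libraries. The RefSeq table of promoters (GRCm38.p6) held 56 of the 64 members. The 150 bases before the start are printed for 4 genes that rose, Snrpa, Hnrnpa1, Hnrnpa3 and Srsf2, and for 3 that fell, Hnrnpul1, Sf3b2 and Srsf1. Capitals mark every match, on either strand, to 6 motifs. They are the E-box with the letters CACGTG, the ETS motif with CCGGAAG, the NRF1 motif with GCATGCGC, the CCAAT box, the GC box with GGGCGG and the TATA box with TATAAA. The positions are chr7:27196272-27196421 on the minus strand for Snrpa, chr15:103240247-103240396 on the plus strand for Hnrnpa1, chr2:75659109-75659258 on the plus strand for Hnrnpa3, chr11:116853095-116853244 on the minus strand for Srsf2, chr7:25754760-25754909 on the minus strand for Hnrnpul1, chr19:5295456-5295605 on the minus strand for Sf3b2 and chr11:88047223-88047372 on the plus strand for Srsf1.
Snrpa: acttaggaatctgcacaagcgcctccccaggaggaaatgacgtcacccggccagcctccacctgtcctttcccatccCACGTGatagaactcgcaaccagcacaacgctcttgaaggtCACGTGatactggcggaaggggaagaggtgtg
Hnrnpa1: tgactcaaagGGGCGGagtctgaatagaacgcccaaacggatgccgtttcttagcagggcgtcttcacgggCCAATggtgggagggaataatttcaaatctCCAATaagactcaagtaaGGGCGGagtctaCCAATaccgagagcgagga
Hnrnpa3: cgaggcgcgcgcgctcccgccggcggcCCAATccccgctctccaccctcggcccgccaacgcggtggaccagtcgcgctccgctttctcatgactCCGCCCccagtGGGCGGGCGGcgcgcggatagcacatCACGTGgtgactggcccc
Srsf2: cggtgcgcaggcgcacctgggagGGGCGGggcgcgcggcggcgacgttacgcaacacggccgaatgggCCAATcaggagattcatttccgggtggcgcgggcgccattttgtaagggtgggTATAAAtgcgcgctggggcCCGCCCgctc
Hnrnpul1: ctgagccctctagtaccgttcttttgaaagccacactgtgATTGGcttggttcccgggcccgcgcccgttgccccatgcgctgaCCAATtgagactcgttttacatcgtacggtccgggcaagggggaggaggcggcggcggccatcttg
Sf3b2: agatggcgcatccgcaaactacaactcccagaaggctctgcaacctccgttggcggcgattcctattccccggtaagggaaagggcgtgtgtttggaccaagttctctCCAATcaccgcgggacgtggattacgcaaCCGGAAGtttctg
Srsf1: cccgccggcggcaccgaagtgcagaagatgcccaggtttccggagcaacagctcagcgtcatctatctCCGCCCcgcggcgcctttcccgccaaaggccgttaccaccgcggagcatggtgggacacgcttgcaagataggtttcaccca
The printed stretch of Snrpa holds a pair of E-boxes and that of Hnrnpa3 a single one, and the letters are not in the other 5 stretches. The start used is that of the RefSeq table. For some members it lies downstream of the GENCODE start, so that part or all of the window lies inside the gene. The distance was 154 bases for Prpf40b, 1333 for Snrpa1 and 368 for Hnrnph3, among others. The shares of members below include such windows. Over the 250 bases before the RefSeq start, 3 of 11 members called higher with a promoter in the table held the E-box. They were Snrpa, Hnrnpa3 and Prpf40b. The call of Hnrnpa3 was lost when any single library was left out. Prpf40b, with 27 counts over the blood libraries, would not have passed the minimum without the liver libraries. The E-box was in 0 of 4 members called lower and in 2 of 40 not called. Among the 9107 genes tested that had a promoter in the table, 8.61% held it (6.02% of all 27025 promoters). Shares of the genes tested below are of these 9107 as well, and differences between the sets were not tested. The ETS motif was in 17 of 56 members (30.4%), against 14.7% of the genes tested and 7.11% of all promoters. It was in 1 of 11 members called higher, 1 of 4 called lower and 15 of 40 not called. The CCAAT box was in 46.4% of members, against 36.4% of the genes tested and 34.3% of all promoters, and the GC box in 67.9%, against 58.6% and 33.0%. The TATA box was in 8.93% of members, against 6.24% of the genes tested and 12.9% of all promoters, and the NRF1 motif in 1.79%, against 4.67% and 2.33%. Matches may overlap, as GC boxes do in the third promoter.

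SR proteins, which bind exonic enhancers, were higher for 3 of 10 tested members, Srsf7, Srsf6 and Srsf2, and lower for Srsf1, and the median log2 fold change was 0.41. Their summed level was 1516 ± 102 CPM in liver, against 1279 ± 128 CPM in blood (SD of 3 libraries). Srsf7, an SR protein with a zinc knuckle that also takes part in mRNA export, had 30.9, 30.5 and 36.3 CPM in liver 1, 2 and 3, against 13.1, 14.8 and 13.1 CPM in blood 1, 2 and 3. All 3 liver values stood above all blood values, and the gene was 2.39-fold higher, with a log2 fold change of 1.25 ± 0.22 (SE) and an adjusted p of 0.0030 by edgeR. Srsf6, a regulator of alternative exons, had 89.8, 84.7 and 117 CPM in liver and 57.8, 51.6 and 51.5 CPM in blood. It was 1.81-fold higher (log2 0.86 ± 0.19, edgeR adjusted p = 0.0088), with the highest value in liver 3.

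Srsf2, a protein of nuclear speckles, had 99.5, 75.2 and 99.0 CPM in liver and 42.6, 44.0 and 70.9 CPM in blood, so that liver 2 lay just above blood 3. Its log2 fold change was 0.80 ± 0.24 (edgeR adjusted p = 0.032), and the call held only without liver 2 or blood 3 when libraries were left out in turn (adjusted p up to 0.11). Mettl23 and Mfsd11 overlap Srsf2 on the opposite strand, with means of 6.30 and 9.32 CPM in liver and 4.83 and 9.08 CPM in blood. Srsf1, the founding SR protein, went the other way, with 26.0, 31.2 and 36.9 CPM in liver and 42.1, 50.3 and 53.0 CPM in blood. Its log2 fold change was -0.63 ± 0.21 (edgeR adjusted p = 0.047), and the call held only without liver 3 or blood 1 in that procedure (adjusted p up to 0.14). Srsf1 had 2 rows with identical values in every library, as had Hnrnpu. Levels, sums and ranks here take 1 row of each, which would be too low if the authors' counting had split reads between the rows, and this was not tested. With the rows added together the adjusted p of Srsf1 was 0.036.

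The SR genes with the highest mean CPM did not pass the test. Srsf5 had 747, 980 and 747 CPM in liver and 787, 838 and 595 CPM in blood, with overlapping groups and an edgeR adjusted p of 0.63. Per kilobase of merged exons it averaged 196 CPM over the 6 libraries, the highest level per length among the members. Srsf11, an SR-related protein first found with U2AF, had 156, 166 and 178 CPM in liver and 118, 142 and 121 CPM in blood (edgeR adjusted p = 0.11). Srsf3, the smallest SR protein, had a log2 fold change of 0.42 ± 0.20 and Srsf9 of 0.47 ± 0.24, both not called. Srsf10 and Srsf4 stood at 0.09 and -0.37. Srsf12 had 10, 20 and 18 counts in liver and 0, 2 and 0 counts in blood, too few to be tested with the filter on low counts. Without that filter it was called higher (edgeR adjusted p = 0.027). It passed the minimum through the liver libraries alone.

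**Figure D2:**
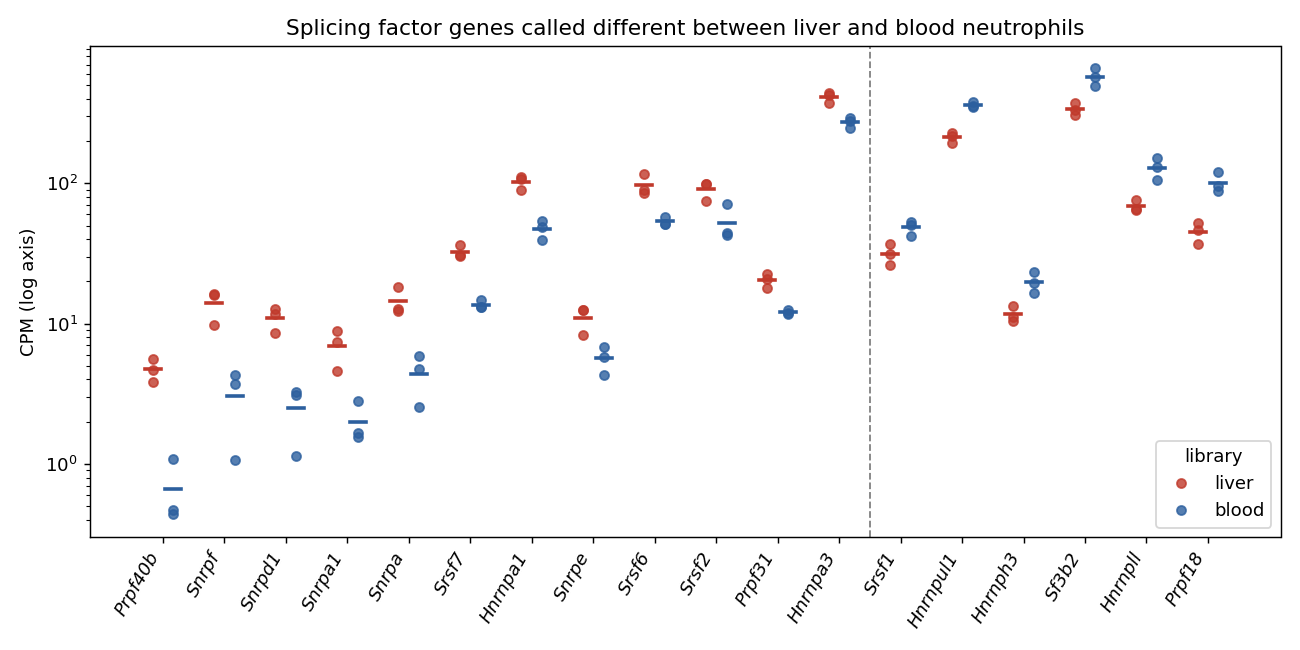
CPM on a log axis of the 18 called members in each library, liver in red to the left of blood in blue, with bars for the means of 3 libraries; genes higher in liver stand left of the dashed line, ordered by fold change. Groups do not overlap for any of the 18 genes, which were picked by their calls, beside 48.5% of all genes tested. The 5 largest folds belong to genes under 10 CPM on average.

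The hnRNPs, abundant nuclear RNA-binding proteins, showed no common direction. Of 20 members, Hnrnpa1 and Hnrnpa3 were higher, Hnrnpll, Hnrnpul1 and Hnrnph3 were lower and 15 were not called, and the median log2 fold change was -0.01. Their summed level was 4076 ± 356 CPM in liver, against 4176 ± 309 CPM in blood. Hnrnpa1, which represses exon inclusion and shuttles to the cytoplasm, had 107, 90.2 and 111 CPM in liver and 53.5, 48.8 and 39.5 CPM in blood. It was 2.17-fold higher (log2 1.12 ± 0.19, edgeR adjusted p = 0.0028). Hnrnpa1 has 9 near-identical copies among annotated genes, with 16.6% as many counts as the gene. Most of these lay in the processed pseudogene AC154780.1, which had 90.0, 120 and 109 counts in liver and 234, 349 and 107 counts in blood. With all copies added, the log2 fold change of Hnrnpa1 was 0.74 and the adjusted p 0.030.

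Hnrnpa3, a close relative that also binds telomeric repeats and transported mRNA, had 376, 443 and 423 CPM in liver and 276, 292 and 248 CPM in blood. Its log2 fold change of 0.60 ± 0.18 was called (edgeR adjusted p = 0.031), but not when any single library was left out (adjusted p up to 0.14). The 22 near-identical copies of Hnrnpa3 held 11.3% as many counts, and with them added the log2 fold change was 0.66. Hnrnpa2b1, of the same subfamily and a common component of hnRNP core particles, stood at 434 ± 58.2 CPM in liver, against 437 ± 68.5 CPM in blood (SD of 3 libraries), with an edgeR adjusted p of 0.97. Hnrnpa0 and Hnrnpab had log2 fold changes of -0.04 and 0.55, and Hnrnpab missed the threshold (adjusted p = 0.063) although its groups did not overlap.

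Hnrnpll, a relative of Hnrnpl known for the alternative splicing of Ptprc (CD45) in lymphocytes, had 64.6, 65.2 and 76.5 CPM in liver and 151, 106 and 131 CPM in blood. It was 1.88-fold lower in liver (log2 -0.91 ± 0.19, edgeR adjusted p = 0.0075). Hnrnpl itself had 94.1, 77.3 and 125 CPM in liver and 142, 125 and 154 CPM in blood, with liver 3 level with blood 2, and was not called (adjusted p = 0.096). Hnrnpul1, a protein similar to hnRNP U, had 217, 230 and 192 CPM in liver and 354, 349 and 378 CPM in blood. All liver values lay below all blood values, 1.69-fold lower (log2 -0.76 ± 0.18, edgeR adjusted p = 0.010). Its relative Hnrnpul2 had 274, 266 and 191 CPM in liver and 462, 368 and 305 CPM in blood, a log2 fold change of -0.63 ± 0.23 that missed the threshold (adjusted p = 0.059). Hnrnpu, which binds chromatin as well as RNA, stood at -0.23 ± 0.26.

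Hnrnph3 had 10.4, 13.3 and 11.2 CPM in liver and 19.5, 23.2 and 16.6 CPM in blood. Its log2 fold change was -0.76 ± 0.26 (edgeR adjusted p = 0.047), and the call held only without blood 3 when libraries were left out in turn (adjusted p up to 0.13). Rufy2, which overlaps Hnrnph3 on the opposite strand, averaged 8.12 CPM in the liver libraries, against 13.8 CPM in the blood libraries. Hnrnph1, Hnrnph2 and Hnrnpf, which bind runs of G, were not called, with log2 fold changes of 0.05, 0.48 and -0.0034. By single rows, the hnRNP gene with the highest mean CPM was Hnrnpk, a protein that binds C-rich RNA, with 496, 518 and 437 CPM in liver and 599, 474 and 419 CPM in blood (adjusted p = 0.90). Its mean of 490.5 CPM over the 6 libraries lay below the 588 CPM that both rows of Hnrnpu gave together. Hnrnpc, Hnrnpd, Hnrnpdl, Hnrnpm and Hnrnpr had log2 fold changes between -0.14 and 0.47 and were not called.

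The snRNP proteins had the highest median log2 fold change of the 5 role groups and the lowest median level per kilobase. Of 11 members, Snrpf, Snrpd1, Snrpa1, Snrpa and Snrpe were higher in liver and the other 6 were not called. The median log2 fold change was 0.92. The share called higher was 45.5%, beside 17.4% of all genes tested. Among the genes tested that averaged up to 10 CPM, 19.6% were higher and the median log2 fold change was 0.43. The summed level was 202, 198 and 171 CPM in liver 1, 2 and 3, against 127, 129 and 126 CPM in blood 1, 2 and 3. Each liver library therefore lay above each blood library. For 9 of the 11 genes the groups did not overlap, higher in liver, against 25.8% of all genes tested. Per kilobase of merged exons, the median snRNP gene averaged 3.27 CPM, that of the SR proteins 14.5 CPM and that of the hnRNPs 31.9 CPM.

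Among the Sm ring proteins, Snrpf had 16.1, 16.0 and 9.71 CPM in liver and 3.74, 4.29 and 1.07 CPM in blood. It was 4.62-fold higher (log2 2.21 ± 0.49, edgeR adjusted p = 0.0092). Snrpd1 had 12.7, 11.6 and 8.55 CPM in liver and 3.09, 3.24 and 1.14 CPM in blood, a 4.41-fold difference (log2 2.14 ± 0.44, edgeR adjusted p = 0.0062). Both genes had their lowest liver value in liver 3 and their lowest blood value in blood 3. Snrpe had 12.5, 12.4 and 8.23 CPM in liver and 4.31, 5.78 and 6.85 CPM in blood, with a log2 fold change of 0.97 ± 0.33 (edgeR adjusted p = 0.0497). That call at the threshold was lost under 12 of 18 alternatives (adjusted p up to 0.16), among them every library left out in turn except liver 3.

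The other 4 ring proteins were not called, although all had positive log2 fold changes. Snrpb, which at 23.0 CPM per kilobase had the highest level per length of the snRNP genes, had 56.9, 53.7 and 49.5 CPM in liver and 40.6, 28.2 and 44.0 CPM in blood, without overlap (log2 0.50 ± 0.22, edgeR adjusted p = 0.10). Snrpd3 stood at 0.69 ± 0.29, Snrpg at 0.66 ± 0.38 and Snrpd2 at 0.41 ± 0.34. A near-identical copy of Snrpg held 14.7% as many counts as the gene.

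Of the particle-specific proteins, Snrpa, the U1 protein that binds a stem loop of U1 RNA, had 12.7, 18.4 and 12.3 CPM in liver and 5.89, 4.73 and 2.55 CPM in blood. It was 3.30-fold higher (log2 1.72 ± 0.38, edgeR adjusted p = 0.0083). BC024978 overlaps it on the opposite strand and averaged 15.1 CPM in the liver libraries, against 6.15 CPM in the blood libraries, so that reads of these genes could be exchanged if counting ignored strand. Snrpa1 of the U2 particle had 7.38, 4.58 and 8.81 CPM in liver and 2.80, 1.66 and 1.54 CPM in blood, 3.44-fold higher (log2 1.78 ± 0.44, edgeR adjusted p = 0.013). Its partner Snrpb2, which binds U2 RNA together with Snrpa1, had 5.03, 5.96 and 8.75 CPM in liver and 3.95, 3.50 and 2.95 CPM in blood and was not called (log2 0.92 ± 0.37, adjusted p = 0.086). Snrpc, which stabilises the pairing of U1 with the 5′ splice site, was the exception in direction, with 49.0, 43.8 and 41.6 CPM in liver and 43.8, 61.3 and 46.5 CPM in blood (log2 -0.17 ± 0.20, adjusted p = 0.54). It was also the snRNP gene with the highest mean CPM.

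The SF3A and SF3B subunits had a single call. Among 9 members, Sf3b2 was lower and the other 8 were not called, with fold changes between -0.02 and 0.45 on the log2 scale. With 1 call, 11.1% were lower, beside 14.2% of all genes tested, and 0% were higher, beside 17.4%. Sf3b2, which contacts RNA near the branch point, had 333, 371 and 306 CPM in liver and 572, 660 and 490 CPM in blood. All liver values lay below all blood values, 1.71-fold lower (log2 -0.77 ± 0.20, edgeR adjusted p = 0.017), and the call was lost without liver 1 (adjusted p = 0.055). Sf3b1, the scaffold of the complex that holds the branch point, had the highest mean CPM of the members, with 1100, 1010 and 1049 CPM in liver and 907, 1029 and 1049 CPM in blood, and the groups overlapped (log2 0.08 ± 0.20, adjusted p = 0.78). Sf3b3, Sf3a1, Sf3a2 and Sf3a3 averaged 52.9, 25.6, 44.2 and 21.7 CPM in liver and 40.1, 20.8, 43.3 and 15.9 CPM in blood. Sf3b4, Sf3b5 and Sf3b6 averaged 20.3, 15.2 and 28.8 CPM in liver and 18.6, 15.3 and 29.2 CPM in blood.

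The PRPF proteins held both the largest rise and the largest fall of the tested members. Of 13 members, Prpf40b and Prpf31 were higher, Prpf18 was lower and 10 were not called, and the median log2 fold change was 0.14. As shares, 15.4% were higher and 7.69% lower, beside 17.4% and 14.2% of all genes tested. Prpf40b, a homologue of a yeast U1 protein that links the ends of an intron, had 5.61, 4.70 and 3.86 CPM in liver and 1.08, 0.438 and 0.470 CPM in blood. It was 7.02-fold higher (log2 2.81 ± 0.53, edgeR adjusted p = 0.0044), but rested on 27 counts over the blood libraries against 224 over the liver libraries. In blood only blood 1, with 15 counts, reached the minimum of 10, so the gene passed because of the liver libraries, where it is high. Prpf31, a protein of the U4/U6 particle, had 18.0, 20.9 and 22.4 CPM in liver and 11.6, 11.9 and 12.5 CPM in blood. Its log2 fold change was 0.77 ± 0.24 (edgeR adjusted p = 0.035), and the call was lost when any single library was left out (adjusted p up to 0.10).

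Prpf18, a factor of the second catalytic step, had 36.7, 46.8 and 52.2 CPM in liver and 88.2, 120 and 94.9 CPM in blood. It was 2.23-fold lower in liver (log2 -1.16 ± 0.21, edgeR adjusted p = 0.0035). Prpf8, the central scaffold of the catalytic core, had 163, 181 and 176 CPM in liver and 129, 141 and 201 CPM in blood, with blood 3 above every liver library (adjusted p = 0.63). Prpf38b, the PRPF gene with the highest mean CPM, had 171, 156 and 188 CPM in liver and 242, 235 and 228 CPM in blood. Its groups did not overlap, yet its log2 fold change of -0.45 ± 0.17 missed the threshold (adjusted p = 0.070). Prpf38a pointed the other way at 0.63 ± 0.23 (adjusted p = 0.063). Prpf19, Prpf3, Prpf4 and Prpf4b had log2 fold changes of 0.80, 0.50, 0.11 and 0.10, and Prpf6 and Prpf39 of -0.28 and -0.38, all not called.

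Members of low level had the higher median fold change. Of 9 tested members that averaged up to 10 CPM, all of them snRNP genes except Prpf40b, 6 were higher (66.7%), and the median log2 fold change was 1.72, beside 19.6% and 0.43 for the 6667 genes tested at that level. Prpf40b would not have passed the minimum without the liver libraries. Of the 24 members above 100 CPM, Hnrnpa3 was higher and Sf3b2 and Hnrnpul1 were lower. Between 100 and 300 CPM, 0 of 16 members and 12.0% of all 1213 genes were higher, and 6.25% of the members and 32.7% of the genes were lower. Above 300 CPM, 12.5% of 8 members and 16.7% of all 630 genes were higher, and 12.5% and 32.2% were lower. The difference between members and other genes at these levels was not tested.

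**Figure D3:**
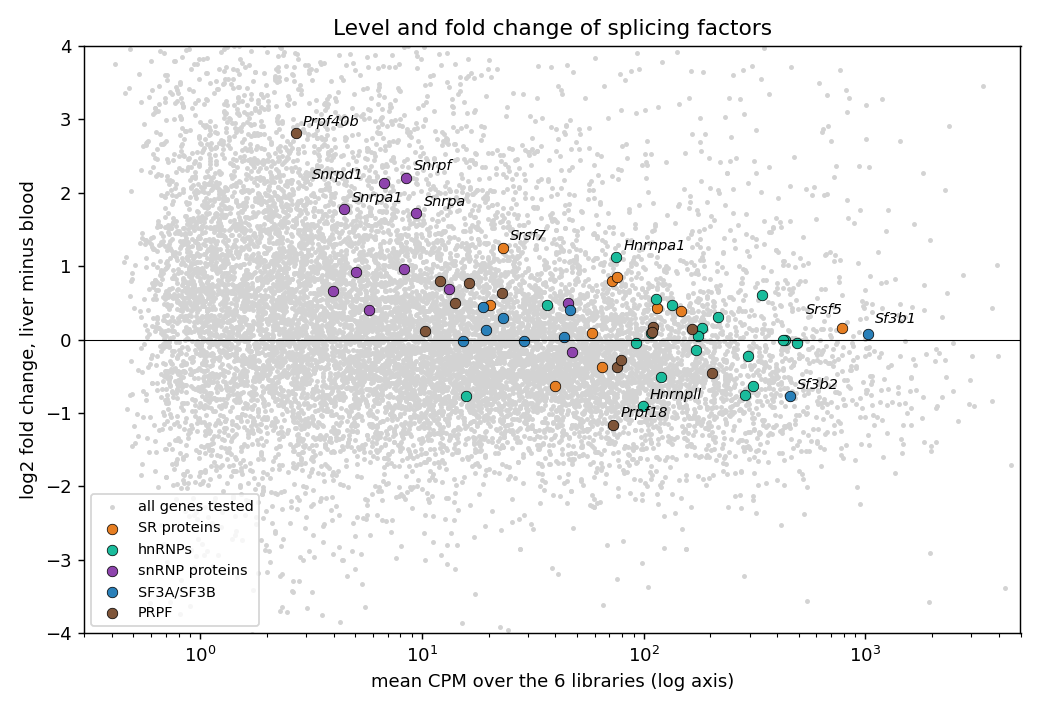
Mean CPM over the 6 libraries (log axis) against the log2 fold change, liver minus blood, of all genes tested (grey) and of the splicing factors by role group (coloured); 302 genes lie outside the axes. Snrpf, Snrpd1, Snrpa1, Snrpa and Prpf40b sit at low levels with large positive fold changes, and Sf3b1 and Srsf5 lie far right, near 0.

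Other genes of the splicing machinery, taken from lists of known factors, were called in both directions as well. Of 123 listed, 121 were tested, and of these 12 were higher (9.92%) and 15 lower (12.4%), beside 17.4% and 14.2% of all genes, and the median log2 fold change was 0.0004. Among SR-related proteins 2 of 16 were higher and 2 lower. Tra2b, which binds purine-rich exonic enhancers together with SR proteins, rose to 153 ± 9.48 CPM in liver, against 74.2 ± 8.63 CPM in blood (2.07-fold, edgeR adjusted p = 0.0025). Srek1 was 2.15-fold higher, a call lost without liver 3 or blood 2, and Pnn was 1.60-fold lower, a call lost without liver 1, liver 2, blood 1 or blood 3. Srrm2 and Son, large speckle proteins with the highest mean CPM of the 121 genes, averaged 1564 and 1103 CPM in liver and 1316 and 1432 CPM in blood and were not called. Of 8 kinases that phosphorylate SR proteins, 2 were lower by edgeR (3 by DESeq2) and 6 not called. Srpk2 had 108, 94.2 and 131 CPM in liver and 236, 186 and 292 CPM in blood, 2.15-fold lower (edgeR adjusted p = 0.0056), and Clk2 was 1.55-fold lower, a call that held only without liver 3 when libraries were left out in turn.

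Among the tri-snRNP and catalytic proteins 2 of 31 were higher and 4 lower. Txnl4b, a relative of the U5 protein Txnl4a, had 8.42, 8.61 and 5.98 CPM in liver and 45.1, 46.8 and 37.3 CPM in blood, 5.61-fold lower (edgeR adjusted p = 0.00029). Isy1 had 510, 163 and 109 CPM in liver and 27.5, 32.4 and 25.0 CPM in blood. Its log2 fold change of 3.20 ± 0.59 became 2.26 without liver 1. Cdc5l, of the complex named for Prpf19, was 1.69-fold lower. Of the U2AF and branch point list 1 of 11 was higher and 1 lower. U2af1, which recognises the 3′ splice site, was 2.03-fold higher, a call lost without liver 1, blood 1 or blood 2, and Sugp1 1.66-fold lower, a call lost without any liver library or blood 3. In the minor spliceosome, which removes a rare class of introns, Snrnp35 was 4.79-fold higher and Pdcd7 3.07-fold lower, and 5 of 7 were not called.

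In the exon junction complex, deposited on spliced mRNA, Casc3 was 2.47-fold lower and Magohb, with 14 counts over the blood libraries, was higher by 2.52 ± 0.81 on the log2 scale, a call lost without any library except liver 2. Lsm1 to Lsm8 form the ring on U6 RNA and, with Lsm1, a ring of cytoplasmic mRNA decay. Of these 8 genes, 0 were called by edgeR, by DESeq2 or by limma-voom, and 0 had an unadjusted p under 0.05. Among all genes tested, 31.6% were called by edgeR. The 8 genes averaged 1.54 to 12.7 CPM, with standard errors up to 0.62 and a median log2 fold change of 0.36. Lack of a call at such levels does not show that they were unchanged. The list of hnRNP-like and other regulators had 4 of 30 higher and 4 lower. Rbm5, an RNA-binding regulator of alternative splicing, was 2.01-fold lower and Tia1, which supports weak 5′ splice sites, 2.11-fold lower, a call lost without liver 1 (adjusted p = 0.053). Ptbp1, the polypyrimidine tract-binding protein, was 1.74-fold higher, with 69.4 ± 5.64 CPM in liver and 39.8 ± 3.84 CPM in blood.

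**Figure D4:**
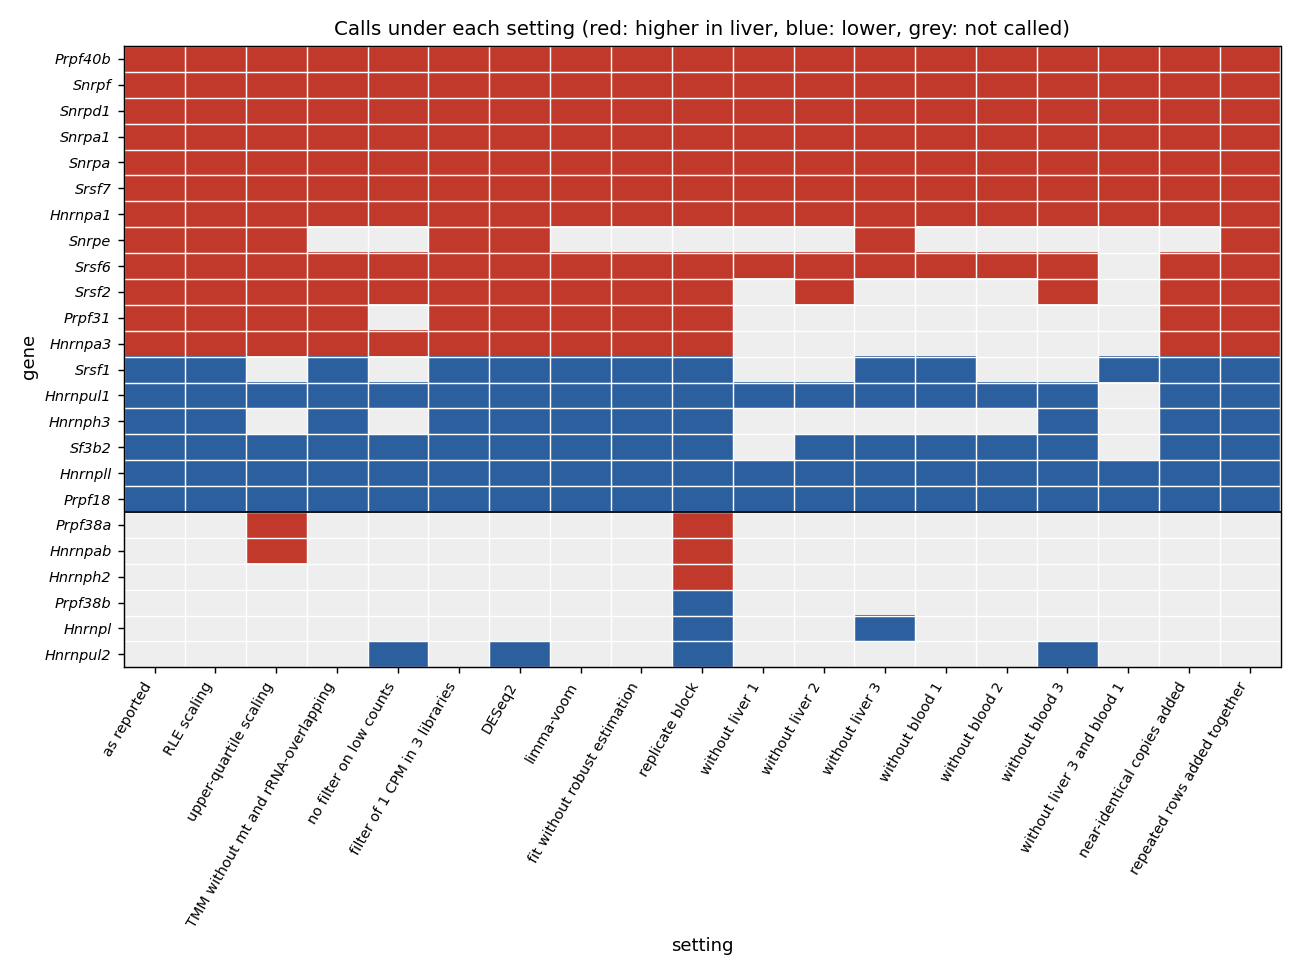
Calls of the 18 called members (above the black line) and of 6 members called under another setting only (below it), with 1 column per setting: red is called higher in liver, blue lower and grey not called. The rows of Prpf40b, Snrpf, Snrpd1, Snrpa1, Snrpa, Srsf7, Hnrnpa1, Hnrnpll and Prpf18 are coloured in every column.

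Calls of 9 members, 7 higher and 2 lower, held under all 18 alternatives, as the map of calls by setting shows, and those of 11 held without each library in turn. A gene on the opposite strand overlaps 25 members, 9 of them called; beside those given above, the liver and blood means were 0.75 and 0.25 CPM for Ccdc38 at Snrpf, 0.48 and 0 CPM for Fam186b at Prpf40b, and 1.00 and 0.71 CPM for Gm15927 at Prpf31. Gm11508 at Srsf1 and Gm22215 at Hnrnpll had 0 CPM in all 6 libraries. AC125059.3 at Sf3b2, AC122253.3 at Hnrnpll and 4933408J17Rik at Snrpf were not analysed here. On the same strand, the protein-coding gene Gm45213 overlaps Snrpa1 and the microRNA gene Gm24574 overlaps Hnrnpa3. The levels of these genes, and any exchange of reads with them, were not tested. Without liver 3 and blood 1 together, the libraries with the highest hepatocyte and erythroid sums, 7 members were called higher and 3 lower. These were Prpf40b, Snrpf, Snrpd1, Snrpa1, Snrpa, Srsf7 and Hnrnpa1, and Prpf18, Hnrnpll and Srsf1. In GRCm38, by GENCODE M21, the 9 genes called throughout are Prpf40b on chromosome 15 from 99295087 to 99317018, Snrpf on chromosome 10 from 93583029 to 93589706, Snrpd1 on chromosome 18 from 10617775 to 10642079, Snrpa1 on chromosome 7 from 66059003 to 66074587, Snrpa on chromosome 7 from 27187005 to 27196271, Srsf7 on chromosome 17 from 80200080 to 80207307, Hnrnpa1 on chromosome 15 from 103240432 to 103246692, Hnrnpll on chromosome 17 from 80029487 to 80062334 and Prpf18 on chromosome 2 from 4622058 to 4652113.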

How the data were processed

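The authors deposited expected counts per gene, 1 file per library, made with STAR and RSEM on the GRCm38 build. FastQC 0.11.5 and limma are listed as well, all per the submitters' processing notes. Libraries came from a kit that marks strand, per the labels' protocols; STAR and RSEM versions, and the strand setting in counting, are not given in the sources at hand. The members and lists were chosen with earlier results of these data known. Expected counts were rounded, filtered with filterByExpr (minimum count 10, minimum total 15), scaled by TMM and tested with edgeR 4.0.16 (R 4.3.3, robust quasi-likelihood test, liver over blood, Benjamini-Hochberg over 13458 genes, threshold 0.05); standard errors came from the F statistic. P-values reflect only the spread among these libraries, since nothing ties each to its own mouse. Libraries of a group were not repeats of each other (chi-square per degree of freedom 52.1 to 79.0).

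Full statistics go to the 10 largest called changes in each direction, the 2 members of highest mean CPM per role group, members whose call changes under an alternative and, per other list, up to 3 called genes, with the 2 genes of highest mean CPM over those lists. Positions, merged exon lengths and overlapping genes come from GENCODE M21. Near-identical copies match at least 50% of a member's longest open reading frame at 95% identity or more (blastn). Alternatives were other scalings and filters, DESeq2 1.42.0, limma-voom (limma 3.58.1), a fit without robust estimation, a replicate block and left-out libraries; adding near-identical copies and adding repeated rows were chosen after seeing the data. The test was also run on simulated data, but the outcome is not given here and no conclusion about the calls is drawn from it. Values of 1 member and of 1 other splicing gene are not reported here, though both are in the counts.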

Additional observations from a re-analysis of the deposited data

How the results depend on the processing

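No called member changed sign under any of the 18 alternatives, and the calls of 9 held under all of them. Members called higher and lower numbered 12 and 6 with RLE scaling, 14 and 4 with upper-quartile scaling, 11 and 5 without the filter on low counts, 12 and 7 with DESeq2 and 11 and 6 with limma-voom. Without the filter, with more low genes tested, the median log2 fold change of all genes was 0.42, against 0.04. Deviations of same-numbered liver and blood libraries from their group means had correlations of 0.054, 0.16 and 0.023. Liver 1 and liver 2 correlated best with their own number, and liver 3 with blood 1 (0.12). The labels state no pairing and these small values cannot decide it, so the main fit left the numbers out. A fit with the replicate block called 14 members higher and 9 lower, against 12 and 6 in the main fit. Leaving out each library in turn, or liver 3 and blood 1 together, gave 7 to 9 members higher, 3 to 6 lower, a member median of 0.10 to 0.31, 1195 to 1626 genes called lower in liver, and 5 to 9 higher and 6 to 13 lower among the other splicing genes. Without liver 3 and blood 1 the counts were 7 and 3 for members, 5 and 9 for other splicing genes and 1195 genes called lower in liver; fewer samples were fitted there. For 17 members that were not called the log2 fold change crossed 0 in some alternative. These were, with upper-quartile scaling, Hnrnpa0 0.045, Hnrnpa2b1 0.075, Hnrnpf 0.084, Hnrnpk 0.046, Sf3b5 0.073, Sf3b6 0.0698, with a filter of 1 CPM in 3 libraries Hnrnpa2b1 0.0027, Hnrnpf 0.011, Sf3b5 0.00035, with limma-voom Hnrnpf 0.0069 and with the replicate block Hnrnpf 0.0062. With libraries left out, they ran for Hnrnpa0 from -0.34 to 0.15, for Hnrnpa2b1 from -0.17 to 0.17, for Hnrnpc from -0.095 to 0.43, for Hnrnpd from -0.0025 to 0.11, for Hnrnpf from -0.14 to 0.046, for Hnrnph1 from -0.12 to 0.18, for Hnrnpk from -0.19 to 0.16, for Hnrnpu from -0.45 to 0.052, for Prpf4 from -0.19 to 0.34, for Prpf4b from -0.075 to 0.15, for Prpf8 from -0.021 to 0.31, for Sf3a2 from -0.18 to 0.29, for Sf3b1 from -0.025 to 0.10, for Sf3b5 from -0.18 to 0.12, for Sf3b6 from -0.21 to 0.082, for Srsf10 from -0.014 to 0.14 and for Srsf5 from -0.027 to 0.24. The cause was not tested. Depth limits Srsf12 and Prpf40b, with 2 and 27 counts over the blood libraries.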
